A study of Mus musculus with 9 samples.

Results

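The genes described are 10 transcripts of cytotoxic lymphocytes: the granzymes *Gzma* and *Gzmb*, the pore-forming perforin *Prf1*, the T cell surface genes *Cd8a*, *Cd3e* and *Cd3g*, the granule and receptor genes *Nkg7* and *Klrd1*, the integrin *Itgae* and the chemokine *Ccl5*. They were chosen by name, from known function, with earlier results of these data known. They are 10 of 18193 genes with a probe set of their own, that is, one annotated to that gene alone. A total of 16 of 34945 such probe sets belong to them, and each gene is represented by its brightest. By this choice 8 of the 10 genes were bright enough to be tested (a mean log2 signal of at least 6.43, the median over all probe sets), among 11453 genes tested, and *Prf1* and *Cd3e* were not. The arrays measured RNA of the whole large intestine of mice with a missense mutation in *Muc2*, which encodes the main secreted mucin of goblet cells, against RNA of wild-type mice. There were 3 wild-type C57BL/6 mice, 3 *Winnie* mice, whose mutation lies on the C57BL/6 strain, and 3 *Eeyore* mice, labelled as a mixed strain of C57BL/6 and NOD-SCID. Both mutations came from mutagenesis of C57BL/6 founders with N-ethyl-N-nitrosourea (ENU), and mutant mice were bred from a different founder for each allele. All 9 mice were 8 wk old and labelled male, and the labels name no treatment. RNA from the proximal and the distal large intestine was pooled in equal amounts for each mouse, with 1 array per mouse.

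Cytotoxic T cells and natural killer (NK) cells kill target cells by releasing granules in which perforin opens the membrane to granzymes, serine proteases that start cell death. In the intestine many such cells lie between epithelial cells as intraepithelial lymphocytes, held there by the integrin αE (*Itgae*) paired with β7, which binds epithelial E-cadherin. IL-15 from the epithelium and other cells sustains them, and transcription factors of the RUNX and T-box families are known regulators of granzyme and perforin genes.

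The promoters of *Gzma* and *Gzmb* are shown because these genes had the largest differences among the 10 between strains. Both lie on the minus strand of GRCm38.p6, *Gzma* at chr13:113093824-113100981 and *Gzmb* at chr14:56258836-56262334. The 250 bases before each start site follow, from RefSeq, at chr13:113100982-113101231 and chr14:56262335-56262584, written 5′ to 3′ on the gene's strand. Capitals mark the letters TGTGGT or ACCACA (the RUNX core on either strand) and AGGTGT or ACACCT (a T-box site on either strand).
Gzma: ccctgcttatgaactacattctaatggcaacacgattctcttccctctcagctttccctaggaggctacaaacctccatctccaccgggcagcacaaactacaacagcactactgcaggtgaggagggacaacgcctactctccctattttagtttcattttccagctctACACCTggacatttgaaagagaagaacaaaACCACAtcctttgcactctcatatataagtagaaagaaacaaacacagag
Gzmb: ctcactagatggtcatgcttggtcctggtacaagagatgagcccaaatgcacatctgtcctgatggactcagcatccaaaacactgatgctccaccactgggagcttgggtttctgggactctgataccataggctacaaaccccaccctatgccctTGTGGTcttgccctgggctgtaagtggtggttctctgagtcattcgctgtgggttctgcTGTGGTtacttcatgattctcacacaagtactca
*Gzma* held a RUNX core from base -50 to -45 and a T-box site from -80 to -75, counted from the start site. *Gzmb* held a pair of RUNX cores, at -93 to -88 and at -34 to -29, and no T-box site in this window. A promoter window of 250 bases before to 50 bases after the start was given for 7 members, all but *Klrd1*, *Itgae* and *Ccl5*. The RUNX core was present in 4 of them (*Gzma*, *Gzmb*, *Prf1*, *Nkg7*), against 16.8% of 32851 promoter windows. The T-box site was present in 5 (*Gzma*, *Prf1*, *Cd3e*, *Cd3g*, *Nkg7*), against 13.7% of windows, and the ETS letters GAGGAAG or CTTCCTC in *Prf1* alone, against 13.6%. None of these letters was found in the window of *Cd8a*. These matches describe the letters and were not tested as binding sites, and no 2 of them overlap.

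The deposited values are signals on a linear scale, with the same trimmed mean of 500 on every array. Median signals lay between 118.6 and 128.9 on wild-type and between 88.1 and 99.5 on mutant arrays, and signals near or below these medians are imprecise. The wild-type arrays went against their sex label: *Xist*, the X-inactivation transcript of female cells, had signals from 7371 to 8261 on them and from 9.13 to 107 on mutant arrays. Y-linked *Eif2s3y* ran the other way, from 4.73 to 24.1 on wild-type and from 1074 to 1454 on mutant arrays. Every comparison with wild-type therefore also set mice with female against mice with male transcripts, and sex and genotype cannot be told apart in it. In *Eeyore* against wild-type the labelled strain background differed as well, and it cannot be told apart from sex and genotype. Between the mutant strains, *Xist* was low in both but without overlap, from 9.13 to 61.8 in *Winnie* and from 65.7 to 107 in *Eeyore* mice, and allele and strain background cannot be told apart. *Prkdc*, the kinase gene mutated in SCID mice, had signals of 378 to 500.2 in wild-type, 269 to 301 in *Winnie* and 292 to 389 in *Eeyore* mice, which give a transcript level and no genotype. Levels of lymphocyte genes in whole tissue cannot tell fewer cells of a type from less RNA per cell.

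Transcripts of both granzymes and of *Ccl5* were lower in *Winnie* than in wild-type mice, and in *Eeyore* mice they overlapped wild-type levels. *Gzma*, *Gzmb* and *Ccl5* fell in *Winnie* mice, by 8.89-, 6.49- and 4.82-fold, where 11.7% of tested probe sets fell. In *Eeyore* mice 0 of 8 tested members passed the test against wild-type, where 29.3% of tested probe sets did. In the direct comparison of the strains, *Gzma* was 11.01-fold and *Gzmb* 10.2-fold higher in *Eeyore* than in *Winnie* mice, where 1.07% of tested probe sets were higher. All differences were tested with limma on log2 signals, and a gene passed with a p of at most 0.05 after Benjamini-Hochberg adjustment over all 22519 tested probe sets.

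**Figure D1:**
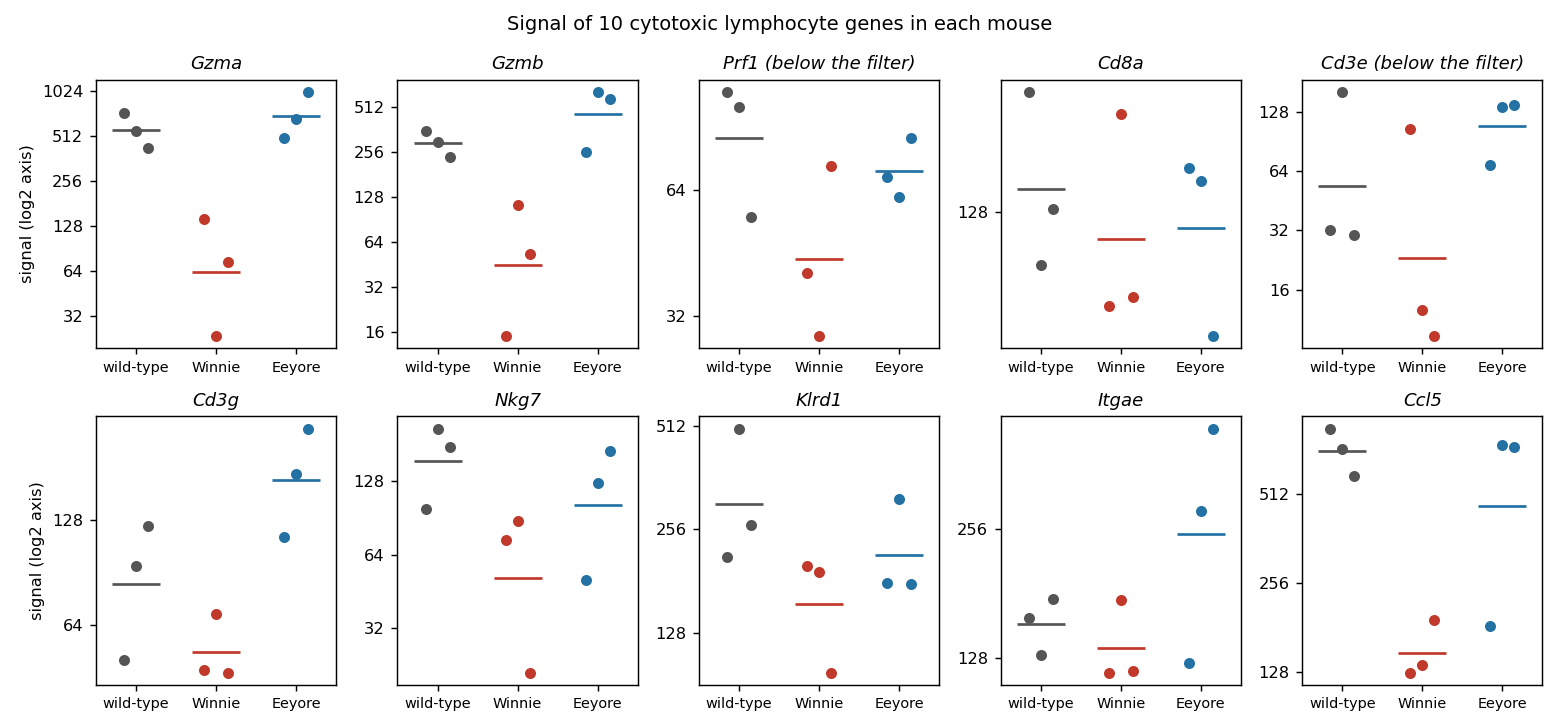
Signal of each of the 10 genes (brightest probe set, log2 axis) in wild-type, *Winnie* and *Eeyore* mice; each point is 1 mouse and each line the geometric mean of 3 mice. *Gzma*, *Gzmb* and *Ccl5* lie lower in every *Winnie* mouse than in every wild-type mouse, whereas *Cd8a* and *Prf1* overlap between all groups.

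*Gzma* encodes granzyme A, a protease with trypsin-like specificity. Its signal was 729, 554 and 427 in the 3 wild-type mice, 141, 23.5 and 73.8 in *Winnie* mice, and 495, 658 and 1004 in *Eeyore* mice. All *Winnie* mice were below all other mice, and wild-type and *Eeyore* mice overlapped. The log2 difference was -3.15 ± 0.51 (SE, n = 3 mice per group) for *Winnie* against wild-type, with an adjusted p of 0.00168 in limma's test. For *Eeyore* against wild-type it was 0.31 ± 0.51 (limma, adjusted p = 0.683). *Eeyore* exceeded *Winnie* by 3.46 ± 0.51 on the log2 scale (limma, adjusted p = 0.00317).

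*Gzmb*, granzyme B, cleaves after aspartate and activates caspases. Its signal was 351, 299 and 234 in wild-type, 15.05, 113 and 52.7 in *Winnie*, and 255, 642 and 577 in the *Eeyore* mice. Again every *Winnie* mouse was below every other mouse, and *Eeyore* mouse 1 lay within the wild-type range. The log2 difference was -2.70 ± 0.60 for *Winnie* against wild-type (limma, adjusted p = 0.00844), 0.65 ± 0.60 for *Eeyore* against wild-type (adjusted p = 0.442) and 3.34 ± 0.60 for *Eeyore* against *Winnie* (adjusted p = 0.0100).

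The *Winnie* signals of both granzymes were dim, and the size of the differences of *Winnie* mice from wild-type and from *Eeyore* mice moved with the setting while their direction did not in the alternatives run. The direction of *Eeyore* against wild-type, which was called in none of them, turned when arrays were scaled on pan-leukocyte markers, to -0.36 for *Gzma* and -0.02 for *Gzmb*. In *Winnie* mouse 2 for *Gzma* and in *Winnie* mouse 1 for *Gzmb* the signal lay under 41.1, the highest of the 25th percentiles of the 9 arrays. With 32 added to every signal, the differences between *Winnie* and wild-type were -2.55 for *Gzma* and -1.95 for *Gzmb* on the log2 scale, and those between *Eeyore* and *Winnie* were 2.84 and 2.56 (limma, adjusted p from 0.000649 to 0.00471 for these 4 values). For *Gzma*, *Winnie* against wild-type became -2.45 without *Winnie* mouse 2 and -3.74 without *Winnie* mouse 1. For *Gzmb* it became -1.91 without *Winnie* mouse 1 and -3.37 without *Winnie* mouse 2. The *Eeyore* against *Winnie* values moved to 2.75 and 4.05 for *Gzma* and to 2.56 and 4.01 for *Gzmb* without the same mice. The higher *Gzmb* of *Eeyore* over *Winnie* mice did not pass the test without *Eeyore* mouse 2 (limma, adjusted p = 0.0582) or without the intensity trend of the variance model (adjusted p = 0.0625).

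*Ccl5*, a chemokine made by activated and memory T cells and NK cells, fell in *Winnie* mice too. Its signal was 855, 727 and 592 in wild-type, 127, 135 and 191 in *Winnie*, and 183, 751 and 739.6 in the *Eeyore* mice. *Eeyore* mouse 1 lay in the *Winnie* range and the other *Eeyore* mice in the wild-type range. *Winnie* differed from wild-type by -2.27 ± 0.44 on the log2 scale (limma, adjusted p = 0.00433). *Eeyore* differed from wild-type by -0.62 ± 0.44 (adjusted p = 0.315) and from *Winnie* by 1.65 ± 0.44 (adjusted p = 0.0812). Without *Eeyore* mouse 1 the difference of *Eeyore* from *Winnie* was 2.33 and passed the test (limma, adjusted p = 0.000175), and that of *Eeyore* from wild-type was 0.06 (adjusted p = 0.884).

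Of the 8 tested members, then, 3 fell and 0 rose in *Winnie* against wild-type, where 11.7% of the 22519 tested probe sets fell, 9.75% rose and 21.5% changed in all. All 8 estimates were below 0, with a median of -1.27 against -0.09 over all tested probe sets. With quantile normalization and with median centring, *Cd8a* (0.15 and 0.20) and *Itgae* (0.18 and 0.22) were above 0 and the other members below it. *Winnie* and wild-type mice did not overlap for 5 members (*Gzma*, *Gzmb*, *Nkg7*, *Klrd1* and *Ccl5*, each lower in *Winnie*), where 25.1% of tested probe sets were lower and 17.1% higher without overlap. In *Eeyore* against wild-type, 0 of 8 members passed limma's test and 0 had an unadjusted p under 0.05, where 12.2% of tested probe sets rose, 17.1% fell and 29.3% changed in all. Estimates were above 0 for 4 members and below 0 for 4, with a median of 0.07 against -0.09, and 0 of 8 were higher or lower without overlap, where 18.2% of tested probe sets were higher and 26.9% lower without overlap. In *Eeyore* against *Winnie*, 2 members were higher and 0 lower, where 1.07% of tested probe sets were higher, 1.24% lower and 2.30% changed in all. All 8 estimates were above 0, with a median of 1.32 against -0.02. That of *Cd8a* (0.04) fell below 0 with quantile normalization (-0.007), median centring (-0.04) and scaling on pan-leukocyte markers (-0.56). On the last of these scales *Klrd1* was at -0.14 too. *Gzma*, *Gzmb* and *Cd3g* did not overlap, where 9.29% of tested probe sets were higher and 10.1% lower without overlap. The comparisons share mice, so that the *Winnie* values enter 2 of them. Because the members were chosen with earlier results of these data known, these counts are a description.

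**Figure D2:**
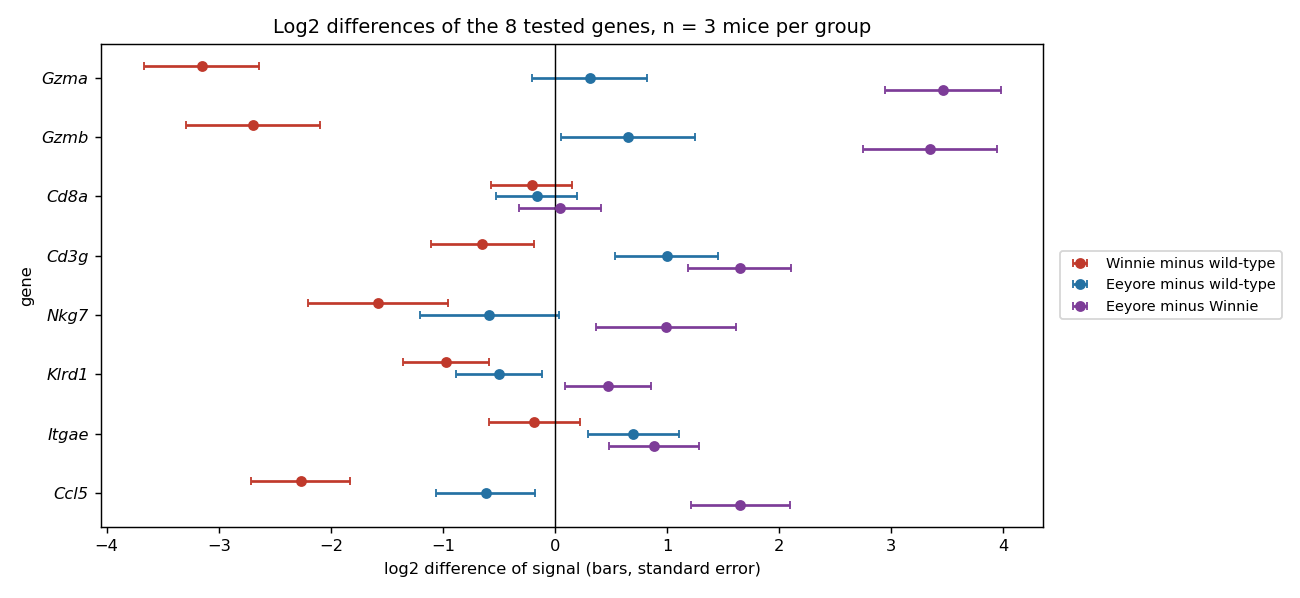
Log2 difference of signal for the 8 tested genes (points, estimate; bars, standard error of the limma fit; n = 3 mice per group). For *Winnie* minus wild-type, *Gzma*, *Gzmb* and *Ccl5* lie at -3.15, -2.70 and -2.27 and passed the test; for *Eeyore* minus wild-type all points lie between -0.62 and 1.00 and none passed it.

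Among the other granule and NK genes, *Nkg7*, a granule membrane protein needed for efficient killing, had signals of 98.7, 209 and 177 in wild-type, 73.5, 88.2 and 21.1 in *Winnie*, and 50.4, 125 and 169.9 in the *Eeyore* mice. *Winnie* mice lay below wild-type mice without overlap, but the difference of -1.58 ± 0.62 did not pass limma's test (adjusted p = 0.0899). *Klrd1* encodes CD94, which pairs with NKG2 receptors on NK cells and on part of the CD8 T cells. Its signals were 212, 503 and 264 in wild-type, 199.98, 192 and 98.1 in *Winnie*, and 179, 315 and 178 in the *Eeyore* mice. The lowest wild-type and the highest *Winnie* mouse were close, and the difference was -0.97 ± 0.38 (limma, adjusted p = 0.0920). For both genes *Eeyore* overlapped the other groups, with differences from wild-type of -0.59 ± 0.62 for *Nkg7* (adjusted p = 0.505) and -0.50 ± 0.38 for *Klrd1* (adjusted p = 0.354). *Prf1*, perforin, was too dim to be tested: the brighter of its probe sets gave 109, 101 and 55.2 in wild-type, 40.5, 28.7 and 72.7 in *Winnie*, and 68.5, 61.5 and 85.1 in the *Eeyore* mice. All 3 groups overlapped, and without the filter on dim probe sets *Winnie* differed from wild-type by -0.95 ± 0.63 (limma, adjusted p = 0.433).

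The T cell surface genes were dim and less even. *Cd3g*, the γ chain of the CD3 complex that carries the T cell receptor signal, had signals of 50.6, 94.4 and 123 in wild-type, 47.5, 68.9 and 46.7 in *Winnie*, and 115, 174 and 235 in the *Eeyore* mice. Every *Eeyore* mouse was above every *Winnie* mouse, and wild-type mice overlapped with both. *Eeyore* differed from *Winnie* by 1.65 ± 0.46 on the log2 scale (limma, adjusted p = 0.0944) and from wild-type by 1.00 ± 0.46 (adjusted p = 0.123), the highest of the 8 estimates in that comparison. *Winnie* differed from wild-type by -0.65 ± 0.46 (adjusted p = 0.337). *Cd3e*, the ε chain, was too dim to be tested, with signals of 32.3, 161 and 30.3 in wild-type, 105, 12.6 and 9.34 in *Winnie*, and 68.9, 135 and 138 in the *Eeyore* mice, which overlapped between all groups.

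*Cd8a*, the α chain of the CD8 co-receptor, was measured by 5 probe sets that disagreed. The brightest overlapped between all groups, with signals of 180.3, 110.1 and 129 in wild-type, 97.96, 169 and 101 in *Winnie*, and 145, 139.9 and 90.1 in the *Eeyore* mice, and differences of -0.21 ± 0.36 for *Winnie* and -0.16 ± 0.36 for *Eeyore* from wild-type (limma, adjusted p = 0.718 and 0.768). A dimmer probe set separated the groups instead, with signals of 24.9, 83.0 and 58.2 in wild-type, 55.2, 26.1 and 38.6 in *Winnie*, and 148, 141 and 213 in the *Eeyore* mice. Every *Eeyore* mouse was above every other mouse on it, but without the filter the difference of *Eeyore* from wild-type, 1.74 ± 0.64, did not pass the test (limma, adjusted p = 0.0963). Another dim probe set went the other way, with signals of 144, 129.95 and 135 in wild-type, 92.3, 44.99 and 50.2 in *Winnie*, and 72.6, 5.05 and 120.3 in the *Eeyore* mice. All mutant mice were below all wild-type mice on it, and without the filter the differences were -1.20 ± 0.94 and -1.95 ± 0.94 (limma, adjusted p = 0.517 and 0.213). The remaining 2 probe sets overlapped between groups, and the level of *Cd8a* transcript is uncertain here. *Cd8b1*, its partner chain, is also dim and was picked after its values were seen. Its signals were 127, 89.2 and 67.6 in wild-type, 2.61, 37.2 and 2.28 in *Winnie*, and 76.6, 71.9 and 68.3 in the *Eeyore* mice, with *Winnie* mice below all others. All *Winnie* signals of *Cd8b1* lay under 41.1, so that no size of the difference is given. Of the other T cell receptor and signalling genes too dim to be tested, *Cd247* was also lower in *Winnie* than in wild-type mice without overlap. *Cd3d*, *Cd4*, *Cd2*, *Cd5*, *Cd6*, *Cd7*, *Lcp2* and *Trat1* overlapped between these groups.

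*Itgae*, the integrin subunit that holds lymphocytes at the epithelium, was measured by 2 probe sets bright enough to be tested. The brighter gave 159, 129.8 and 175 in wild-type, 118, 174 and 119 in *Winnie*, and 125, 282 and 439 in the *Eeyore* mice. Wild-type and *Winnie* mice overlapped and *Eeyore* mouse 1 lay in the *Winnie* range, while *Eeyore* mice 2 and 3 were the highest of all 9. *Eeyore* differed from wild-type by 0.70 ± 0.40 (limma, adjusted p = 0.213) and *Winnie* by -0.18 ± 0.40 (adjusted p = 0.776). Without *Eeyore* mouse 1, *Itgae* was higher by 1.20 than in wild-type (limma, adjusted p = 0.0184) and by 1.38 than in *Winnie* mice (adjusted p = 0.0380). The second probe set gave 127.5, 112.7 and 133 in wild-type, 121.8, 98.6 and 85.9 in *Winnie*, and 143, 192 and 217 in the *Eeyore* mice. Every *Eeyore* mouse was above every other mouse on it, although neither comparison with wild-type passed the test. The *Winnie* signals of this probe set were near the median signals of those arrays (95.4, 88.1 and 92.2) and are imprecise. The log2 differences were 0.54 ± 0.31 for *Eeyore* against wild-type (adjusted p = 0.201) and -0.30 ± 0.31 for *Winnie* (adjusted p = 0.518).

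Summed over the 10 genes, signals ran from 2208 to 2888 in wild-type, from 786 to 1006 in *Winnie* and from 1685 to 3656 in *Eeyore* mice. Averaged over the 8 tested genes, *Winnie* mice 1, 2 and 3 lay -1.51, -1.20 and -1.68 from the wild-type mean on the log2 scale, and *Eeyore* mice lay -0.56, 0.40 and 0.46 from it. *Eeyore* mouse 1 stood apart from its group in this mean and in that of the 7 pan-leukocyte markers (*Ptprc*, *Cd53*, *Cd52*, *Laptm5*, *Coro1a*, *Cd48*, *Rac2*), where it lay at -0.03 and mice 2 and 3 at 0.96 and 1.07. Leaving it out raised the members called in *Eeyore* against *Winnie* from 2 to 4, and those called in *Eeyore* against wild-type from 0 to 1.

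Markers of other cells were compared because the tissue holds all of them. Pan-leukocyte markers did not pass the test in *Winnie* (0 of 7, median log2 difference 0.07), with summed signals of 5772 to 7641 in wild-type and 6402 to 8551 in *Winnie* mice. In *Eeyore* mice, with sums of 7476 to 13648, 2 of 7 rose, *Cd53* by 0.87 and *Cd52* by 0.80 on the log2 scale (limma, adjusted p = 0.0205 and 0.00905). The call of *Cd53* was lost in 6 of 17 alternatives, 4 of which left out *Eeyore* mouse 2 or 3 or wild-type mouse 2 or 3 (adjusted p up to 0.0782 for these). With every array scaled on these 7 markers (a setting chosen with the values in view) the same 3 members were called lower in *Winnie*, with *Gzma* at -3.21, *Gzmb* at -2.76 and *Ccl5* at -2.33. On that scale *Klrd1* (-1.17) and *Ccl5* (-1.29) were lower in *Eeyore* than in wild-type mice (limma, adjusted p = 0.0353 and 0.00933), and *Gzma* and *Gzmb* stayed higher in *Eeyore* than in *Winnie* by 2.85 and 2.74.

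**Figure D3:**
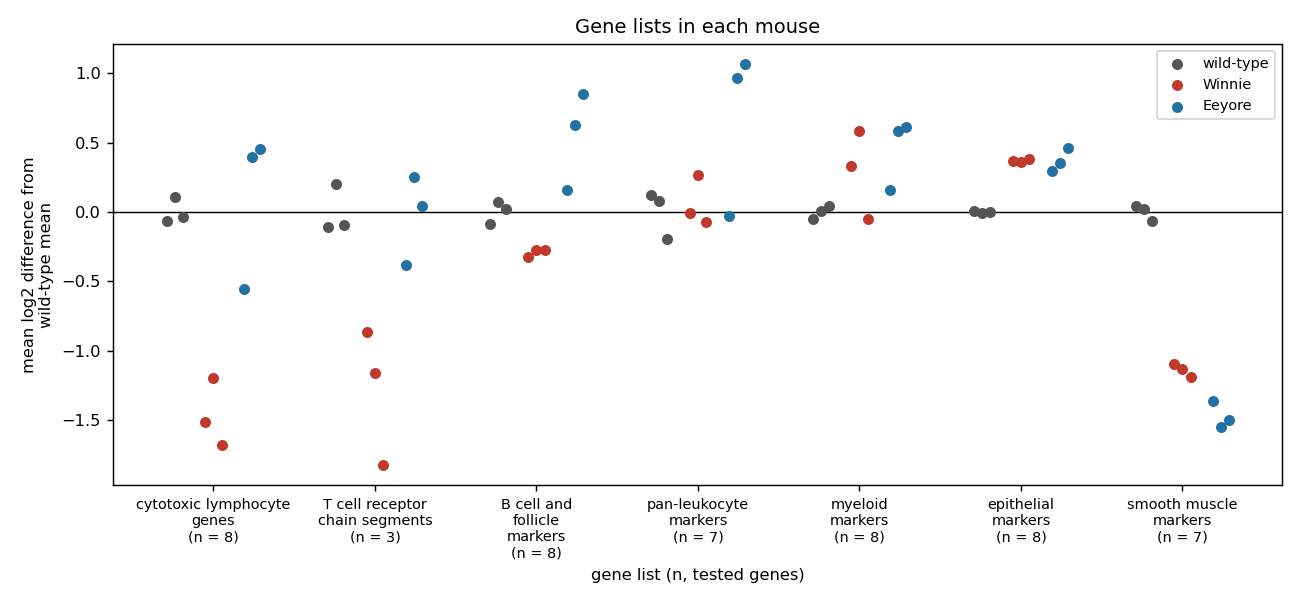
Mean log2 difference from the wild-type mean over the tested genes of each list, with 1 point per mouse; n is the number of tested genes. For the cytotoxic genes the *Winnie* mice lie between -1.68 and -1.20, while their pan-leukocyte markers lie between -0.08 and 0.26; the list of receptor chain segments was chosen after values were seen.

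Muscle and epithelial markers moved in both strains. All 7 smooth muscle markers fell in *Winnie* (median -1.13) and in *Eeyore* (median -1.50). *Myh11*, smooth muscle myosin, for example, fell by 1.39 and by 1.97, respectively. Their summed signals were 148955 to 154654 in wild-type, 69481 to 74147 in *Winnie* and 56418 to 62004 in *Eeyore* mice. Of 8 epithelial markers, 4 rose in *Winnie* and 5 in *Eeyore*, among them *Krt20* by 0.94 and 0.77 and *Vil1* by 0.48 and 0.63, and 0 fell; scaled on pan-leukocyte markers, neither gene was called and *Vil1* in *Eeyore* was at -0.03. Epithelial sums were 195009 to 203894, 243114 to 248968 and 243557 to 276027. No value on any array was at 0, so that a signal above 0 does not show a marker to be present. The part of tissue composition in the member differences was not tested.

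B cell and follicle markers were tested for 8 genes, whose mean log2 difference from the wild-type mean lay from -0.33 to -0.27 in *Winnie* and from 0.15 to 0.85 in *Eeyore* mice. Signals summed over the list were 17551 to 23975 in wild-type, 18606 to 24909.6 in *Winnie* and 23624 to 39065 in *Eeyore* mice, and were mostly those of *Jchain*, the joining chain of secreted antibodies, at 15098 to 21981, 16788 to 22986 and 20593 to 34359.8. In *Winnie* mice 1 fell, *Cd79b*, a chain of the B cell receptor (-0.79; limma, adjusted p = 0.0447), and its call was lost in 11 of 17 alternatives, quantile normalization (adjusted p = 0.151) and leaving out wild-type mouse 1 or 2 or any *Winnie* mouse among them (adjusted p up to 0.157 without 1 of these mice). In *Eeyore* mice 2 rose, among them *Cxcl13*, a chemokine of B cell follicles, by 1.51 (adjusted p = 0.000739), which was also 1.62 higher than in *Winnie* (adjusted p = 0.00245). Myeloid markers (8 genes; sums of 7873 to 8087, 9631 to 12081 and 9324 to 18335) rose for 1 gene in *Winnie*. In *Eeyore* mice 3 rose, such as *Fcgr1*, a high-affinity Fc receptor, by 1.67, and *Cd163*, a scavenger receptor of macrophages, fell by 1.45 (adjusted p = 0.00248 and 0.0408), the latter a call lost in 10 of 17 alternatives, each *Eeyore* mouse and wild-type mice 2 and 3 left out among them (adjusted p up to 0.133). With arrays scaled on pan-leukocyte markers the *Eeyore* calls of *Cxcl13* and *Fcgr1* against wild-type were lost (limma, adjusted p = 0.0745 and 0.0831), as was that of *Cxcl13* against *Winnie* (adjusted p = 0.0983). The part of these cells in the member differences was not tested.

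Other genes of the cytotoxic pathway were read from lists chosen by function, also with earlier results of these data known. Granule content and release comprised 17 genes, of which 9 were tested, and 1 rose in each strain: *Ctsc*, the dipeptidyl peptidase that activates granzyme proforms and is also made by many myeloid cells. Its signals were 3312 to 3973 in wild-type, 5411 to 6239 in *Winnie* and 7212 to 9359 in *Eeyore* mice, without overlap between any groups. The log2 differences from wild-type were 0.68 and 1.22 (limma, adjusted p = 0.00225 and 3.37e-05), neither of which was called with arrays scaled on pan-leukocyte markers. The other 8 tested genes, including serglycin (*Srgn*), *Rab27a* and *Unc13d*, which pack and release granules, did not pass the test in either strain. The remaining granzymes of the list were too dim to be tested. *Gzmk*, picked after its values were seen, had signals of 182, 116 and 151 in wild-type, 14.8, 10.3 and 8.59 in *Winnie*, and 9.99, 15.8 and 18.8 in the *Eeyore* mice. Unlike *Gzma* and *Gzmb*, it was lower in all mutant mice than in all wild-type mice. Of tested probe sets, 25.1% in *Winnie* and 26.9% in *Eeyore* mice were lower than wild-type without overlap. All mutant signals of *Gzmk* lay under 41.1, so that no size of the difference is given. Other dim genes of the list differed from it. *Gzmm* and *Ctsw* were lower without overlap in *Winnie* mice only, and *Gzmc* was higher there. *Gzmd*, *Gzme*, *Gzmf* and *Gzmg* overlapped wild-type in both strains.

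Of 16 genes of the T cell receptor complex and its signalling, 14 had a probe set of their own and 4 were bright enough to be tested. In *Winnie* mice *Thy1*, a surface glycoprotein of T cells and of neurons, fell by 0.89 (limma, adjusted p = 0.0311), a call lost in 7 of 17 alternatives (adjusted p up to 0.203), among them quantile normalization and leaving out wild-type mouse 1 (adjusted p = 0.108), wild-type mouse 2 (0.0963) or *Winnie* mouse 3 (0.113). In *Eeyore* mice its difference was -0.75 (adjusted p = 0.0501). *Cd28*, *Zap70* and *Lat* did not pass in either strain. Segments of the receptor chains themselves formed a list added after values were seen, of which 3 of 9 were tested. *Trbv1* had signals of 449, 415 and 327 in wild-type, 174, 159 and 169 in *Winnie*, and 187, 426 and 443 in the *Eeyore* mice. *Trav9d-3* had signals of 168, 256 and 225 in wild-type, 110.1, 76.1 and 35.1 in *Winnie*, and 164, 264 and 272 in the *Eeyore* mice. *Trgv4*, a segment of the γ chain, had signals of 111, 152 and 118 in wild-type, 91.1, 77.96 and 39.8 in *Winnie*, and 155, 159.8 and 96.5 in the *Eeyore* mice. For all 3 segments all *Winnie* mice were below all wild-type and all *Eeyore* mice, and wild-type and *Eeyore* mice overlapped. Without overlap, 25.1% of tested probe sets were lower in *Winnie* than in wild-type and 9.29% higher in *Eeyore* than in *Winnie* mice. *Trgv4* did not pass the test in *Winnie* against wild-type (limma, adjusted p = 0.124). *Trav9d-3* and *Trbv1* passed it, calls lost in 1 and 3 of 17 alternatives. *Trav9d-3* is also among the genes selected for likeness to the members, so its pattern is a description.

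NK receptors and their adaptors gave 0 calls among 6 tested genes in *Winnie* mice. *Tyrobp* and *Fcer1g* were higher there than in wild-type mice without overlap, by 0.75 and 0.82 (limma, adjusted p = 0.0784 and 0.0916). Each was called in 4 of 17 alternatives. *Itga2* of the same list was lower without overlap, with a difference of -0.57 (adjusted p = 0.296). In *Eeyore* mice 2 rose, the signalling adaptors *Tyrobp* by 1.43 and *Fcer1g* by 1.23 (limma, adjusted p = 0.00330 and 0.0146), which myeloid cells express too. Both lost the call with arrays scaled on pan-leukocyte markers, and *Fcer1g* also without *Eeyore* mouse 2 (adjusted p = 0.0639) or 3 (0.0537). The NK activating receptor *Ncr1* was too dim to be tested. A list of death ligands, death receptors, effector cytokines and chemokines gave 0 calls among 3 tested genes in either strain. These were the receptor *Fas*, the death ligand *Tnfsf10* and the chemokine *Ccl4*, and *Fasl*, *Ifng* and *Tnf* were too dim to be tested.

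Among genes that hold or sustain intraepithelial lymphocytes, 8 were tested. *Il15*, the cytokine that sustains these cells, fell in both strains, with signals of 771, 723 and 874 in wild-type, 481, 331 and 221 in *Winnie*, and 307, 271 and 281 in the *Eeyore* mice. All mutant mice were below all wild-type mice, with log2 differences of -1.26 ± 0.25 and -1.46 ± 0.25 (limma, adjusted p = 0.00425 and 0.00120). *Ccl25*, a chemokine that draws lymphocytes to the intestine, fell in *Eeyore* by 1.72 (adjusted p = 0.0136), a call lost without wild-type mouse 1 (adjusted p = 0.0688), and differed by -1.27 in *Winnie* mice (adjusted p = 0.0634). E-cadherin (*Cdh1*), the ligand of the *Itgae* integrin, did not pass the test in either strain, with log2 differences of 0.07 and 0.00. Integrin β7 (*Itgb7*) did not pass it either.

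Of the transcription factors of cytotoxic cells, 4 were tested. *Prdm1*, which encodes Blimp-1, a factor of effector lymphocytes that epithelium also makes, rose by 1.36 in *Winnie* and 0.76 in *Eeyore* mice (limma, adjusted p = 0.00143 and 0.01998). *Bcl11b*, a factor of T cell identity, fell by 0.96 and 0.71 (adjusted p = 0.00541 and 0.0173). The calls of *Prdm1* in *Eeyore* and of *Bcl11b* in *Winnie* were lost with arrays scaled on pan-leukocyte markers, and that of *Bcl11b* in *Eeyore* with quantile normalization (adjusted p = 0.0582). Leaving out *Eeyore* mouse 3 (adjusted p = 0.0726) or wild-type mouse 3 (0.0632) ended the call of *Prdm1* in *Eeyore*, and leaving out *Eeyore* mouse 1 (0.0583) or wild-type mouse 3 (0.0658) that of *Bcl11b*. *Id2*, an inhibitor of E-protein factors, fell in *Eeyore* by 0.46 (adjusted p = 0.0158) and was named after its values were seen, and *Ikzf3* did not pass. *Tbx21*, *Eomes* and *Runx3*, the T-box and RUNX factors whose motif letters were searched above, were too dim to be tested. Of the receptors of *Ccl5*, *Ccr1* was tested and rose by 0.88 in *Winnie* mice (adjusted p = 0.0302). This call was lost in 7 of 17 alternatives, 5 of which left out wild-type mouse 2 or 3 or a *Winnie* mouse (adjusted p up to 0.0986 for these). *Ccr1* differed by 0.55 in *Eeyore* mice (adjusted p = 0.127).

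The members did not follow one profile equally. Over the 9 mice, the correlation of each gene with the mean of the 10 standardized log2 signals, which includes the gene itself, was 0.894 for *Ccl5*, 0.886 for *Gzmb*, 0.854 for *Gzma*, 0.801 for *Nkg7* and 0.757 for *Cd3g*. It was 0.681 for *Klrd1*, 0.676 for *Cd3e*, 0.635 for *Itgae*, 0.558 for *Prf1* and 0.10 for *Cd8a*. *Ccl5* and both granzymes followed the mean most closely and *Cd8a* least. Outside the lists chosen by function, the 8 genes with the highest correlation with that mean over the same 9 arrays were *Rnf31* (r = 0.969), *Relb* (0.966), *Agrn* (0.956), *Slfn2* (0.948), *Ppm1m* (0.946), *Lgals3bp* (0.944), *Irf7* (0.937) and *Trav9d-3* (0.933). They were selected for this likeness, so that their levels are a description. *Irf7*, an interferon-induced transcription factor, had signals of 3282, 2744 and 2259.8 in wild-type, 1269, 1269.7 and 949 in *Winnie*, and 2152, 3131 and 2319.6 in the *Eeyore* mice. *Slfn2*, a schlafen family gene of lymphocytes and myeloid cells, had signals of 1110.2, 787 and 693, then 222, 372 and 237, then 436, 1735 and 1446 in the same order.

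**Figure D4:**
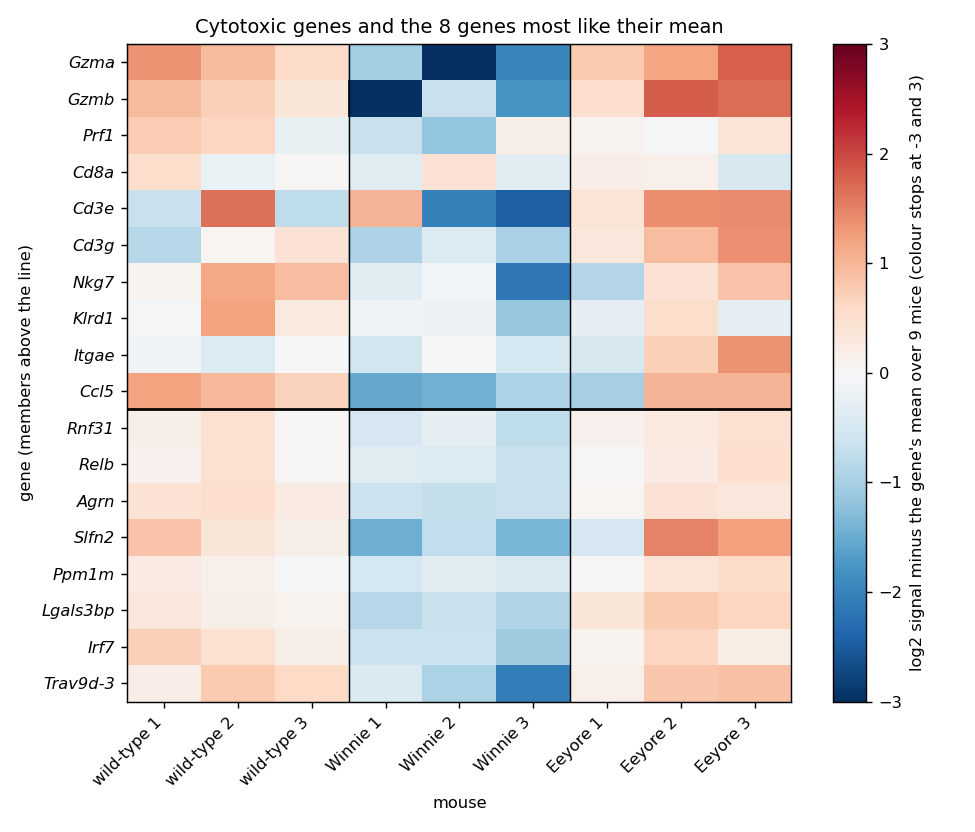
Log2 signal of each gene minus its mean over 9 mice, for the 10 cytotoxic genes (above the line) and the 8 genes most like their mean (below it); columns are mice. The *Winnie* columns are blue for *Gzma*, *Gzmb* and *Ccl5*, and *Eeyore* mouse 1 is blue for *Ccl5* and *Nkg7* where *Eeyore* mice 2 and 3 are red.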

How the data were processed

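One Affymetrix array per mouse measured large intestinal RNA of 3 wild-type, 3 *Winnie* and 3 *Eeyore* mice. The authors deposited linear signal intensity values for 45101 probe sets, scaled to a trimmed mean (2% at each end) of 500; the signal algorithm is not given in the sources used here, and detection calls were not used. Intensities were put on the log2 scale. After control probe sets were left out, 45037 remained, and those with a mean log2 signal at or above the median (6.43; 22519 probe sets) entered the test. All 9 arrays were fitted in one limma model (version 3.58.1, R 4.3.3; lmFit, then eBayes with a trend on intensity), and p-values were adjusted by Benjamini-Hochberg over those probe sets, with a threshold of 0.05. With 3 mice against 3, an exact permutation test could not go below p = 0.1. The number of arrays limits the precision. Gene symbols came from the annotation of the platform, brought up to date by Entrez identifier (1 symbol for 34945 probe sets, several for 932, none for 9160.0). The fit was tested on simulated data. Members and lists were chosen with earlier results of these data known. From each list the text names up to 2 genes with the largest change among those passing the test, all members and the 8 most like genes; others were picked after their values were seen or only to say that they did not pass or were not tested. Alternatives were other scalings, no filter, 32 added to the signal, no intensity trend, only the groups compared, a block on mouse number, the mean over probe sets and leaving out each mouse. Promoters are from RefSeq (GRCm38.p6). Figures used Python 3.11.15 and matplotlib 3.10.9.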

Additional observations from a re-analysis of the deposited data

Results flagged for a closer look

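The count here covers the members, the genes that the naming rule takes from the lists and the 3 tested T cell receptor segments. Of these, 6 passed limma's test in the direct comparison of *Eeyore* with *Winnie* mice, as did 519 of 22519 probe sets in all. The segments *Trbv1* and *Trgv4* did not pass it (limma, adjusted p = 0.138 and 0.261). Genes of the lists outside that rule passed it too, such as *Id2* (-0.54, adjusted p = 0.0431). Genes chosen only for their likeness to the members were not counted, but *Trav9d-3*, which is counted, is also among the genes chosen for that likeness. On the log2 scale *Gzma* was 3.46 and *Gzmb* 3.34 higher in *Eeyore* mice, in each case with all 3 *Eeyore* mice above all 3 *Winnie* mice. *Cxcl13* was higher by 1.62, *Ctsc* by 0.54 and the T cell receptor segment *Trav9d-3*, picked after its values were seen, by 1.78. *Myh11* was lower in *Eeyore* mice, with a difference of -0.58. *Trav9d-3* kept its call in 3 of 17 alternatives and *Ctsc* in 9 of 17, whereas *Cxcl13* and *Myh11* kept it in 16 of 17 and *Gzma* in 18 of 18.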

How the results depend on the processing

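The count of 3 members lower in *Winnie* mice was found in every alternative but one: with mouse number as a block it was 4, with *Klrd1* added (limma, adjusted p = 0.0422). Over 9 pairs of equally numbered mice, deviations correlated from -0.00821 to 0.164, with 7 pairs above 0. With 3 mice per group, such values cannot settle whether equally numbered mice belong together. With the block, 0 members were called in *Eeyore* against wild-type and 2 in *Eeyore* against *Winnie*. That setting called 4872, 6604 and 524 probe sets over the 3 comparisons. In *Eeyore* against wild-type, 1 member was called with median centring (*Cd3g*, 1.32 higher) and 2 when scaled on pan-leukocyte markers (*Klrd1* and *Ccl5*, lower). In *Eeyore* against *Winnie*, 1 was called without the intensity trend. Leaving out 1 mouse at a time gave 3 to 3, 0 to 1 and 1 to 4 members, and 2896 to 5148, 4475 to 6789 and 295 to 848 probe sets. The lowest member count between strains came without *Eeyore* mouse 2 and the highest without *Eeyore* mouse 1. The 4834 probe sets called in *Winnie* became 8087 with median centring (7234 higher, 853 lower), which moved the median of all probe sets from -0.09 to 0.32, and 4377 with quantile normalization (2387 higher, 1990.0 lower). In *Eeyore* the 6589 became 8227 (6350.0 higher, 1877 lower) and 6117 (3120.0 higher, 2997 lower). Between strains the 519 became 282 without the intensity trend, and 544 with median centring (180.0 higher, 364 lower). Scaling on pan-leukocyte markers reversed *Vil1* in *Eeyore* against wild-type (-0.034) and *Ctsc* in *Eeyore* against *Winnie* (-0.062). The causes were not tested. Signals under 41.1 limit the precision of the granzyme differences.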

Other observations

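The proteases *Mcpt1* and *Mcpt2* of mucosal mast cells were picked after their values were seen among the 7 genes of the mast cell list, and both were too dim to be tested. *Mcpt1* had signals of 11.99, 2.46 and 11.4 in wild-type, 96.4, 90.9 and 127 in *Winnie*, and 400.1, 303 and 231 in the *Eeyore* mice. *Mcpt2* had signals of 10.3, 6.95 and 4.78 in wild-type, 207, 175 and 141 in *Winnie*, and 285, 442 and 338 in the *Eeyore* mice. All mutant mice were above all wild-type mice for both. Other genes of the list did not follow in *Winnie* mice: *Cpa3*, *Mcpt4* and *Tpsb2* overlapped with wild-type, and *Cma1*, a chymase, differed by -0.56 in *Winnie* and 0.47 in *Eeyore* mice (limma, adjusted p = 0.449 and 0.505). *Kit*, the stem cell factor receptor of mast cells and of the pacemaker cells of intestinal muscle, fell in both strains, on the log2 scale by 1.64 in *Winnie* and by 1.97 in *Eeyore* (limma, adjusted p = 0.000523 and 9.86e-05).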
